A study of Mus musculus with 6 samples.

Results

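Macrophages read antibodies through a small family of receptors for the constant (Fc) part of immunoglobulins. In the mouse, those that bind IgG are the high-affinity receptor *Fcgr1* (CD64), the lower-affinity activating receptors *Fcgr3* (CD16) and *Fcgr4* (CD16-2), and *Fcgr2b* (CD32b), the inhibitory one, whose cytoplasmic tail carries an inhibitory motif (ITIM). The activating receptors signal through the Fc receptor gamma chain, which is encoded by *Fcer1g* and carries an activating motif (ITAM), and engagement of these receptors drives uptake and killing of antibody-coated cells. *Fcgrt* encodes the heavy chain of the neonatal Fc receptor, which rescues IgG and albumin from degradation after uptake, and *Fcrls* encodes a relative of the family with a scavenger receptor domain, which is known as a marker of microglia. These 7 genes, out of 23424 in the deposited tables, were taken by symbol, and all 7 had a row in each table and passed the filter on low counts.

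The cells were tumor-associated macrophages (TAMs) from YUMM1.7 tumors. This line, derived from a mouse melanoma, was injected intradermally into female wild-type C57Bl/6J mice that were 8 weeks old at tumor induction and got no other treatment. On day 21, live CD45+ Lin- CD11b+ F4/80+ cells were sorted into F4/80high and F4/80low TAMs from pooled tumors, so that each library is a pool of animals. Lin- means negative for markers of other lineages. The antibodies that made up this gate are not spelled out in the sources used here, but those listed in the study's methods include ones to Ly6G (neutrophils), B220 (B cells), CD3e (T cells) and NK1.1 (NK cells). The 3 libraries of each subset came from independent experiments, p-values measure the spread between these pools only, and all the cells share 1 tumor line. Replicates 1 and 2 of both subsets are drawn as batch 1 and replicate 3 of both as batch 2 in the study's supplement.

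The total counts ranged from 16045281 to 43604373 per library and were lowest in batch 2, where 3 features took 16.1% and 17.1% of the counts, against 0.378% to 0.609% in batch 1. Levels are given in CPM, the count of a gene relative to the total of its library after scaling by the TMM method, and differences as log2 fold changes of F4/80high over F4/80low. *Adgre1*, which encodes F4/80, was above the F4/80low level in the F4/80high library of 3 of 3 pairs, by 0.67 ± 0.30 on the log2 scale (SE, n = 3 per subset, edgeR quasi-likelihood test with batch, adjusted p = 0.664), at 273, 539 and 360 CPM in the F4/80high libraries against 243, 327 and 183 CPM in the F4/80low ones. The macrophage markers *Csf1r*, *Cd68*, *Itgam*, *Ptprc*, *C1qa*, *Lyz2* and *Cd14* were detected in all 6 libraries, with the lowest value, 83.2 CPM, for *C1qa* in F4/80low replicate 3. Their levels were not alike in the subsets. With *Adgre1*, 5 of 8 were higher and 3 lower in F4/80high. The log2 differences of their sum were -0.30, 1.06 and -0.26 in pairs 1, 2 and 3. *C1qa* was at 971, 2467 and 543 CPM in F4/80high against 199, 976 and 83.2 CPM in F4/80low.

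Of the 7 genes, 4 lie on chromosome 1 (GRCm38, positions from GENCODE M21). *Fcgr2b* (chr1:170958617-170976547, minus strand), *Fcgr4* (chr1:171018920-171029761, plus strand) and *Fcgr3* (chr1:171051174-171064935, minus strand) stand within 106 kb, and *Fcer1g* (chr1:171229572-171234365, minus strand) starts 165 kb beyond *Fcgr3*. *Fcgr1* (chr3:96282909-96293969, minus strand) and *Fcrls* (chr3:87250758-87263738, minus strand) are on chromosome 3, and *Fcgrt* (chr7:45092990-45103851, minus strand) is on chromosome 7. Exons of *Fcgr2b* overlap the antisense gene *Gm38204*, which had 0 to 13 counts in each library against at least 2826 for *Fcgr2b*.

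*Fcgr2b* and *Fcgr3* encode receptors with opposite signals and nearly the same IgG-binding part, and this bears on how their reads can be counted. Over 784 aligned coding bases, 658 (83.9%) were identical, while every other pair among *Fcgr1*, *Fcgr2b*, *Fcgr3*, *Fcgr4* and *Fcrls* was between 54% and 64.3% identical. Stretches of 209 coding bases of both transcripts are shown because they hold the longest identical run, 129 bases, with the 5 differing bases in capitals; both run 5′ to 3′ on the minus strand of GRCm38, across an intron, from GENCODE M21.
Fcgr2b, chr1:170966634-170968121: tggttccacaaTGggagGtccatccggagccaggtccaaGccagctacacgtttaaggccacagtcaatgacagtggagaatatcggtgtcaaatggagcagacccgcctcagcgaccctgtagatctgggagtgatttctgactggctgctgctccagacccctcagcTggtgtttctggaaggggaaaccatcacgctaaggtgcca
Fcgr3, chr1:171054127-171057832: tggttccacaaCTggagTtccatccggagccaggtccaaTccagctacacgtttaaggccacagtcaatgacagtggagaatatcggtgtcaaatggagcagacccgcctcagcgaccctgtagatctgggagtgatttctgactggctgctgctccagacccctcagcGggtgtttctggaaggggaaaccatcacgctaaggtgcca
Of all windows of 50 bases in the transcripts, 2.92% of those of *Fcgr2b* also occurred in *Fcgr3* and 9.58% of those of *Fcgr3* in *Fcgr2b*. With windows of 100 bases the shares were 0.753% and 2.54%. Counting windows shared with any other gene, the shares of *Fcgr2b* were 6.95% and 4.3%, those of *Fcgr3* did not grow, and there were none for *Fcgr1*, *Fcgr4*, *Fcer1g*, *Fcgrt* or *Fcrls*. How the counting treated such reads is not given in the sources used here, so the split of counts between *Fcgr2b* and *Fcgr3* carries some uncertainty.

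*Fcrls* had the largest difference of the 7 genes. Its levels were 377, 1255 and 737 CPM in F4/80high replicates 1, 2 and 3, and 79.4, 340 and 38.8 CPM in F4/80low replicates 1, 2 and 3. All 3 F4/80high libraries were above all 3 F4/80low libraries, which held for 2.30% of the 14645 genes tested. In pairs of one replicate number the log2 differences were 2.25, 1.88 and 4.25. The log2 fold change was 2.68 ± 0.71 (SE, n = 3 per subset, a 6.41-fold difference, 95% interval 1.07 to 4.29). With batch as a term this did not pass the test over all genes (edgeR, adjusted p = 0.461), and 0% of genes were called, a call being an adjusted p under 0.05 with a log2 fold change beyond 1 in either direction. Without adjustment its p was under 0.05, as for 7.60% of all genes. With the replicate pair as a block, the log2 fold change was 2.75 ± 0.42 (95% interval 1.80 to 3.71) and *Fcrls* passed (edgeR with the replicate block, adjusted p = 0.0348), as 1 of the 0.519% of genes called in that fit. Single libraries changed the size. Without F4/80high replicate 3, or without F4/80low replicate 3, the log2 fold change was 1.96 (edgeR with batch, adjusted p = 1 in both). Batch 2 has only these 2 libraries, so with 1 left out the batch term takes up the other. Leaving out both also gave 1.96, so these fits compare the subsets within batch 1 only. Without F4/80low replicate 2 it was 3.73 (edgeR, adjusted p = 0.472). Without F4/80high replicate 1 it was 3.31 and *Fcrls* passed (edgeR, adjusted p = 0.049), and there 0.396% of genes passed and 13.8% had an unadjusted p under 0.05. DESeq2 called *Fcrls* with the block, beside 2.42% of all genes, and not with batch, beside 1.01%. At an unadjusted p under 0.05 the shares of all genes in DESeq2 were 9.42% with batch and 11.7% with the block.

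**Figure D1:**
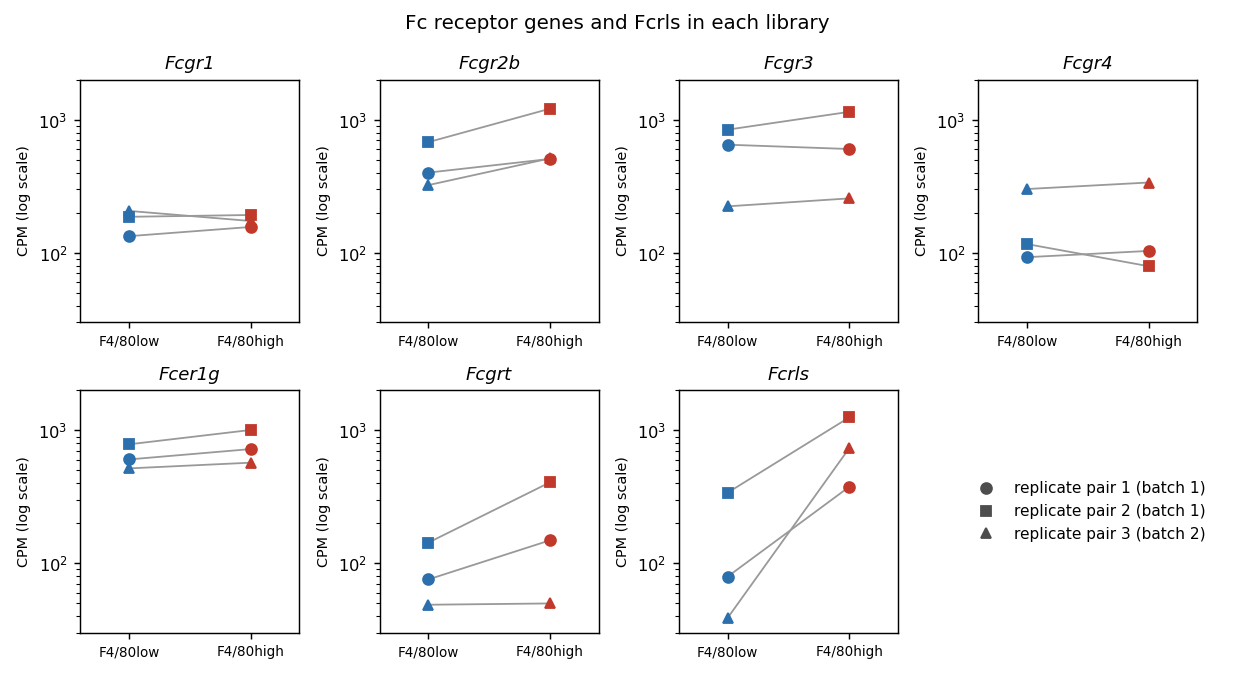
Level of each gene in CPM (log axis) in every library, with lines joining the F4/80low and F4/80high libraries of a replicate pair (circles, squares and triangles for pairs 1, 2 and 3; blue for F4/80low, red for F4/80high). The 3 F4/80high values of *Fcrls*, 377 to 1255 CPM, lie above the 3 F4/80low values, 38.8 to 340 CPM, while the other genes overlap between the subsets.

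The inhibitory receptor *Fcgr2b* was higher in F4/80high in each pair. It stood at 507, 1211 and 512 CPM in replicates 1, 2 and 3 of F4/80high and at 400, 678 and 322 CPM in F4/80low, with the subsets overlapping because F4/80low replicate 2 was above 2 of the F4/80high libraries. The log2 differences within pairs were 0.34, 0.84 and 0.67, and the log2 fold change was 0.67 ± 0.34 (SE, n = 3 per subset, edgeR with batch, adjusted p = 0.696, 95% interval -0.11 to 1.45). With the replicate block it was 0.62 ± 0.19 (95% interval 0.19 to 1.04), which did not pass either (edgeR, adjusted p = 0.265). In the fit with batch and 1 library left out, it ranged from 0.21, without F4/80high replicate 2, to 0.96, without F4/80high replicate 1.

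The 3 activating IgG receptors had no difference past the test, and their pairs went both ways. *Fcgr1*, the high-affinity receptor that also serves as a macrophage marker, was at 156, 192 and 173 CPM in the F4/80high libraries and at 133, 186 and 206 CPM in F4/80low replicates 1, 2 and 3. Its log2 fold change was -0.00 ± 0.24 (SE, n = 3 per subset, 95% interval -0.53 to 0.53, edgeR, adjusted p = 0.999), and its range over all 6 libraries was the narrowest of the 7 genes. *Fcgr3* was at 602, 1147 and 256 CPM in the F4/80high libraries and at 649, 842 and 223 CPM in F4/80low, a log2 fold change of 0.22 ± 0.28 (95% interval -0.41 to 0.85, edgeR, adjusted p = 0.882), with F4/80low above F4/80high in pair 1. *Fcgr4* was at 103, 79 and 337 CPM in the F4/80high libraries and at 92.4, 116 and 301 CPM in F4/80low, a log2 fold change of -0.08 ± 0.23 (95% interval -0.60 to 0.44, edgeR, adjusted p = 0.958), with F4/80low above F4/80high in pair 2. The intervals of all 3 genes hold 0 and exclude a 2-fold difference in either direction.

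The signalling chain *Fcer1g* was at 724, 1008 and 572 CPM in the F4/80high libraries and at 605, 786 and 518 CPM in F4/80low replicates 1, 2 and 3. Each pair was higher in F4/80high, by 0.26, 0.36 and 0.14 on the log2 scale, and the libraries of the subsets overlapped. The log2 fold change was 0.26 ± 0.24 (SE, n = 3 per subset, 95% interval -0.27 to 0.79, edgeR, adjusted p = 0.806). With 1 library left out it ranged from 0.06, without F4/80high replicate 2, to 0.37, without F4/80high replicate 1. Per kilobase of transcript, *Fcer1g* had the highest level of the 7 genes in all 6 libraries, from 593 to 1153 CPM per kb. *Fcrls* ranked 2 or 3 among the 7 genes in F4/80high libraries, at 162 to 538 CPM per kb, and in F4/80low it ranked 7, 3 and 7 in replicates 1, 2 and 3, at 34, 146 and 16.6 CPM per kb.

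*Fcgrt* was at 149, 407 and 49.9 CPM in the F4/80high libraries and at 75.6, 143 and 48.8 CPM in F4/80low replicates 1, 2 and 3. The pair differences were 0.98, 1.51 and 0.03 on the log2 scale, so the third pair was nearly level. The log2 fold change was 0.93 ± 0.44 (SE, n = 3 per subset, 95% interval -0.07 to 1.93, edgeR, adjusted p = 0.685), and 0.86 ± 0.28 with the replicate block (95% interval 0.22 to 1.50, edgeR, adjusted p = 0.322). In the fit with batch and 1 library left out, it ranged from 0.25, without F4/80high replicate 2, to 1.35, without either replicate 3 library. *B2m*, the light chain that the neonatal receptor shares with MHC class I, averaged 4196 ± 1223 CPM across F4/80high and 4376 ± 1692 CPM across F4/80low libraries (SD, n = 3), a log2 fold change of -0.03 ± 0.24 (edgeR, adjusted p = 0.99).

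In counts, 4 of the 7 genes (*Fcgr2b*, *Fcer1g*, *Fcgrt* and *Fcrls*) were higher in F4/80high in all 3 pairs and 0 were lower in all 3, where 17.7% and 16.0% of all genes tested were so. With RLE size factors 3 of the 7 were higher in all pairs, and with library size alone 5 were. Of the 7, 1 had an unadjusted p under 0.05 with batch as a term, beside 7.60% of all genes, and 3 did with the replicate block (*Fcrls*, *Fcgr2b* and *Fcgrt*), beside 9.91%. With the block and without replicate 1, 2 or 3 of both subsets, 1 of the 7 was called, beside 2.25%, 0.246% and 0.152% of all genes, and 3, 2 and 2 had an unadjusted p under 0.05, beside 11.9%, 11.3% and 6.49%. Without replicate 3 of both subsets and without the block, 2 did, beside 3.85%.

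**Figure D2:**
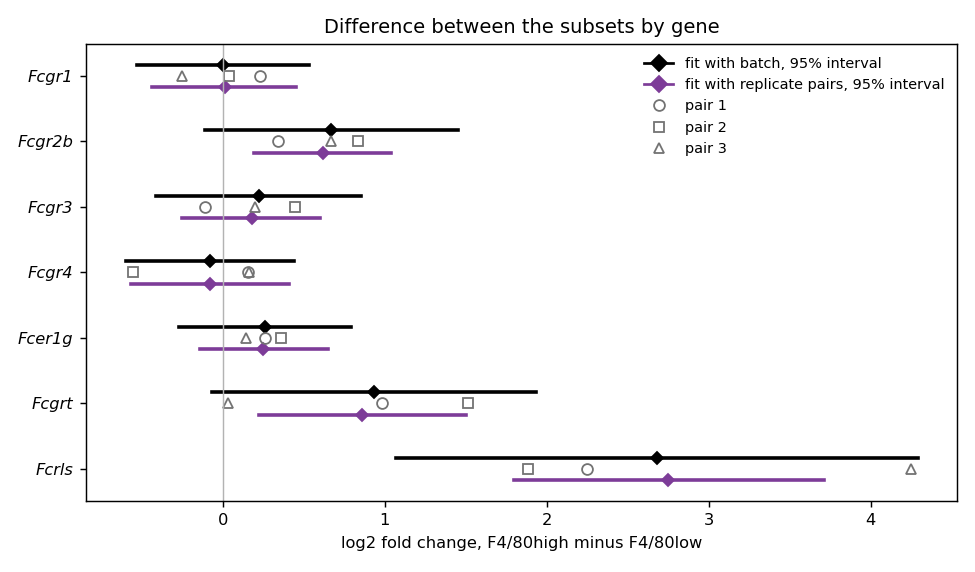
Log2 fold change of F4/80high over F4/80low for each gene, with its 95% interval in the fit with batch (black) and in the fit with replicate pairs (purple), and the difference of each pair (open circles, squares and triangles for pairs 1, 2 and 3). *Fcrls*, at 2.68 and 2.75, stands to the right of the other genes, which lie between -0.08 and 0.93 in the fit with batch.

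Ratios within a library do not depend on its scaling. *Fcgr2b* had 84.2, 106 and 200 counts per 100 counts of *Fcgr3* in replicates 1, 2 and 3 of F4/80high and 61.7, 80.5 and 144 in those of F4/80low. The difference was of nearly the same size in each pair, 0.45, 0.40 and 0.47 on the log2 scale, while the level of the ratio itself varied more between experiments than between subsets. The summed level of the activating receptors *Fcgr1*, *Fcgr3* and *Fcgr4* per kilobase was 5.59, 3.81 and 5.45 times that of *Fcgr2b* in F4/80high and 7.21, 5.55 and 8.04 times in F4/80low. It was lower in F4/80high in 3 of 3 pairs, with F4/80low replicate 2 just below F4/80high replicate 1. *Fcrls* had 74.3, 104 and 144 counts per 100 counts of *Fcgr2b* in F4/80high against 19.8, 50.2 and 12 in F4/80low. *Fcer1g* per kilobase was 1.07, 1.44 and 1.33 times *Tyrobp*, the other ITAM chain of macrophages, in F4/80high and 0.765, 0.917 and 0.941 times in F4/80low. These ratios are descriptions with no test, and how often ratios of other genes differ so was not looked at.

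**Figure D3:**
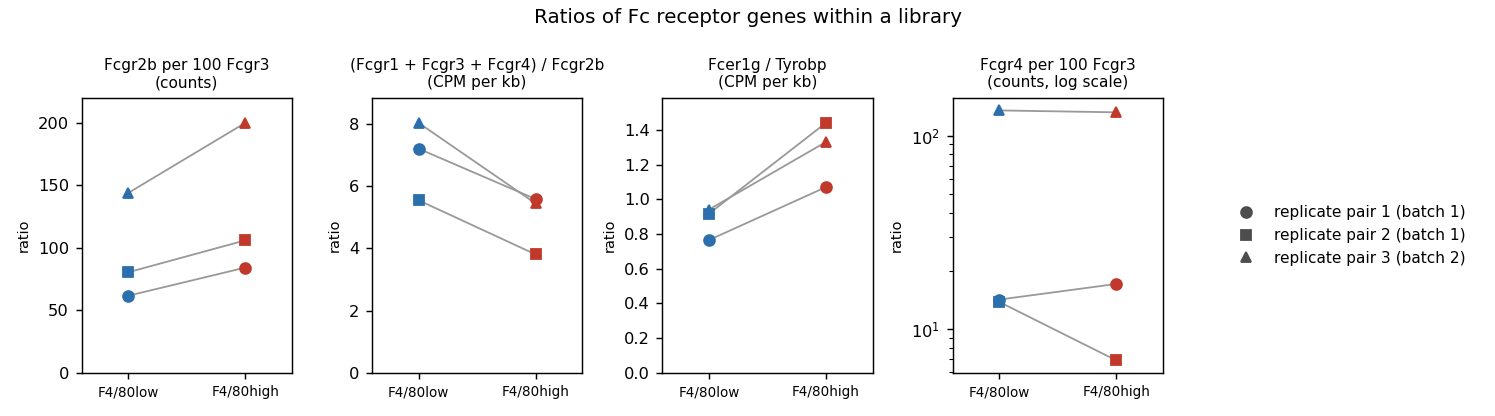
Ratios within each library in F4/80low (blue) and F4/80high (red), with lines joining replicate pairs (circles, squares and triangles for pairs 1, 2 and 3); the last panel has a log axis. *Fcgr2b* per 100 *Fcgr3* counts is higher, and the activating sum over *Fcgr2b* lower, at the F4/80high end of each line, while *Fcgr4* per 100 *Fcgr3* counts lies at 6.89 to 17.1 in batch 1 and at 132 and 135 in batch 2.

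*Fcgr3*, *Fcgr4* and *Fcgrt* also differed between the batches. In the same fit, the log2 difference of batch 2 from batch 1 was -1.76 ± 0.32 for *Fcgr3* and 1.71 ± 0.24 for *Fcgr4* (SE, edgeR, adjusted p = 0.00218 and 0.00047). *Fcgr4* had 6.89 to 17.1 counts per 100 counts of *Fcgr3* in the 4 libraries of batch 1 and 132 and 135 in batch 2. For *Fcgrt* it was -1.77 ± 0.51 (edgeR, adjusted p = 0.0194). The other 4 did not pass, with differences of 0.18 for *Fcgr1*, -0.74 for *Fcgr2b*, -0.51 for *Fcer1g* and -1.12 for *Fcrls*. Of all genes, 42.6% passed at an adjusted p under 0.05 between the batches, and batch 2 is 1 experiment, so batch and experiment cannot be told apart. This fit took both libraries of an experiment as independent, so these p-values do not measure the spread between experiments.

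Markers of other cells differed between the subsets. All 10 neutrophil markers tested were lower in F4/80high, 8 of them with an unadjusted p under 0.05, beside 4.32% of all genes. With the replicate block 6 were called, beside 0.519% of all genes called in either direction. The summed level of the 10 was 753 to 2147 CPM in the F4/80high libraries and 1535 to 4908 CPM in F4/80low. All 8 eosinophil markers were lower too (93.8 to 187 CPM against 271 to 621), as were all 9 mast cell and basophil markers (41.7 to 344 CPM against 110 to 894), all 6 dendritic cell markers (73.5 to 262 CPM against 132 to 475) and all 5 fibroblast markers (276 to 1370 CPM against 681 to 1653). At an unadjusted p under 0.05 were 6 eosinophil markers and 1 marker in each of the other 3 lists, and 1 dendritic cell marker was called with the block. Of the 8 T and NK cell markers, 1 was higher at an unadjusted p under 0.05, beside 3.28% of all genes. All 8 were higher in F4/80high over the 3 pairs together (median log2 fold change 0.83). They summed to 1109, 281 and 156 CPM in the F4/80high libraries and 402, 448 and 72.8 CPM in F4/80low, and the 7 B and plasma cell markers to 10.9 to 143 CPM and 6.62 to 131 CPM, with sums of opposite sign among the pairs in both lists, and 5 B and plasma cell markers were higher and 2 lower. Of the 7 melanoma markers, 4 were analysed and summed to 19.6 to 168 CPM and 13.2 to 106 CPM. The sum was higher in F4/80high in 3 of 3 pairs (by 0.36, 0.82 and 0.67 on the log2 scale). Most of it was *Mitf*, at 16.5, 21.6 and 167 CPM in F4/80high and 13.3, 11.4 and 104 CPM in F4/80low. *Pmel* and *Sox10* were at most 1.82 and 1.26 CPM, with signs that varied among the pairs. No marker was at 0 in every library, and those at 0 in some were *Epx*, *Mcpt4*, *Mcpt8*, *Prss34*, *Jchain*, *Mzb1*, *Clec9a* and *Mlana*. The Lin- gate would remove neutrophils and lymphocytes as far as it held their markers. In bulk libraries fewer cells of a type and less RNA per cell cannot be told apart. The part of these cells in the values above and in those of the pathway genes that follow was not tested.

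The rest of the pathway was described with 68 other genes from 7 lists, none of which was called with batch as a term. Among 30 kinases, adaptors and effectors downstream of activating Fc receptors, 13 were higher and 17 lower in F4/80high (median log2 fold change -0.05). Of the 30, 2 were higher and 4 lower at an unadjusted p under 0.05, beside 3.28% and 4.32% of all genes, and 2 were higher and 10 lower in all 3 pairs, beside 17.7% and 16.0%. *Blnk*, an adaptor that links *Syk* to phospholipase C, lay higher in F4/80high with no overlap, as did 2.30% of all genes. It was at 37.4, 73.7 and 50.6 CPM in F4/80high replicates 1, 2 and 3 and at 13.7, 30.6 and 8.21 CPM in F4/80low. Its log2 fold change was 1.73 ± 0.43 (SE, n = 3 per subset, edgeR, adjusted p = 0.441, and 0.0537 with the replicate block). *Lat2*, another adaptor, had a log2 fold change of 0.65 ± 0.26 (edgeR, adjusted p = 0.621).

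The 4 genes lower at that p were 3 kinases and a phospholipase. *Fgr*, which phosphorylates receptor ITAMs, was at 154, 116 and 91.3 CPM in the F4/80high libraries and at 330, 212 and 232 CPM in F4/80low, with no overlap (2.90% of all genes lay so) and a log2 fold change of -1.12 ± 0.26 (SE, n = 3 per subset, edgeR, adjusted p = 0.44, and 0.0531 with the replicate block). The tyrosine kinase *Btk* was at 48.2, 51.7 and 181 CPM against 76, 88.2 and 358 CPM (log2 fold change -0.81 ± 0.21, edgeR, adjusted p = 0.461). *Syk*, the kinase that docks on ITAMs, was at 221, 144 and 549 CPM against 420, 220 and 902 CPM, lower in F4/80high in 3 of 3 pairs (log2 fold change -0.78 ± 0.30, edgeR, adjusted p = 0.601). The fourth, named after its values were seen, was the phospholipase *Plcg2* (-0.65 ± 0.26).

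**Figure D4:**
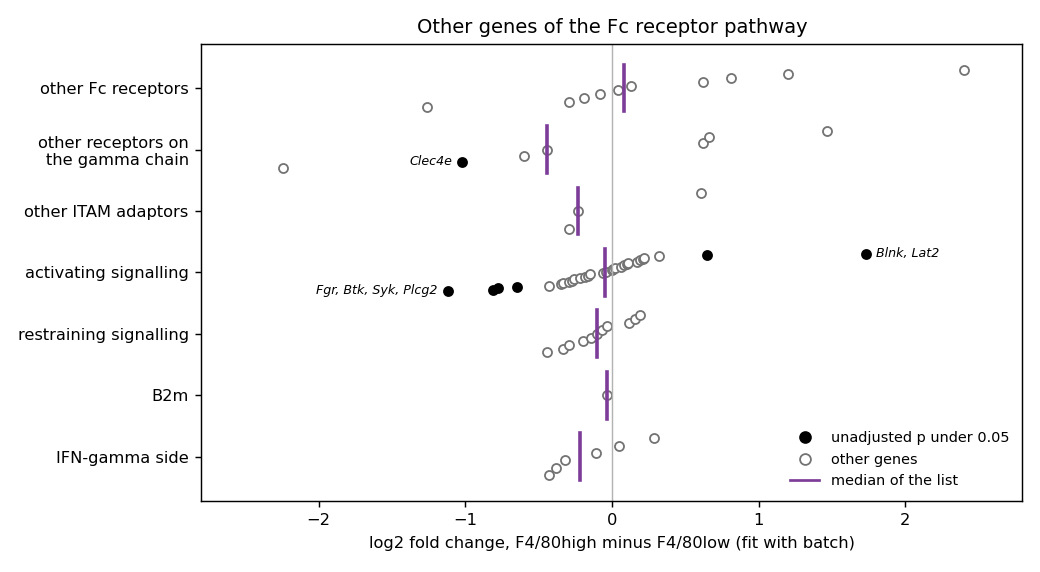
Log2 fold change of F4/80high over F4/80low (fit with batch) of the 68 other genes of the pathway by list, each point 1 gene, filled where the unadjusted p after rounding was under 0.05, with the median of each list in purple. *Fcrl5*, which rounds to 0.05, is therefore not filled. In the activating list *Blnk* (1.73) and *Lat2* (0.65) lie to the right and *Fgr*, *Btk*, *Syk* and *Plcg2* (-1.12 to -0.65) to the left, and no gene passed the test over all genes.

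Of 11 phosphatases, adaptors and ligases that restrain Fc receptor signalling, 3 were higher and 8 lower (median -0.10), and 0 had an unadjusted p under 0.05. *Inpp5d*, the lipid phosphatase SHIP1 that *Fcgr2b* recruits, averaged 216.1 ± 54.45 CPM across F4/80high and 196.4 ± 86.16 CPM across F4/80low libraries (SD, n = 3), with a log2 fold change of 0.19 ± 0.27. The adaptor *Dok3* had one of -0.44 ± 0.23. Of the other adaptor chains, *Tyrobp* (-0.29 ± 0.21) was lower in F4/80high in all 3 pairs. The signs of *Hcst* (-0.23 ± 0.35) and *Cd247* (0.61 ± 0.44), the zeta chain of T and NK cells, varied.

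Of 7 other receptors that signal through the gamma chain, 3 were higher and 4 lower (median -0.44). At an unadjusted p under 0.05, 0 were higher and 1, *Clec4e*, was lower, beside 3.28% and 4.32% of all genes. *Clec4e* (Mincle), a receptor for mycobacterial and fungal glycolipids, was at 276, 159 and 1797 CPM in the F4/80high libraries and at 734, 211 and 3144 CPM in F4/80low (log2 fold change -1.02 ± 0.43, edgeR, adjusted p = 0.639). *Clec4d* (-0.60 ± 0.32), with its second pair reversed, had the same sign, while *Clec4n* (Dectin-2, 0.66 ± 0.33) and *Clec4b1* (1.47 ± 0.80) had the opposite one. *Clec4b1* was scarce, at 2.3, 1.52 and 4.22 CPM in the F4/80high libraries and 1.1, 1.11 and 0.456 CPM in F4/80low. Of 10 other receptors of immunoglobulins and Fc receptor-like genes, 6 were higher and 4 lower. Before rounding, 1 was higher and 0 lower at an unadjusted p under 0.05, beside 3.28% and 4.32% of all genes. *Fcrl5*, a B-cell relative of *Fcrls*, was scarce, at 1.72, 0.777 and 4 CPM in the F4/80high libraries and 0.402, 0.467 and 0.114 CPM in F4/80low (log2 fold change 2.40 ± 1.06, edgeR, adjusted p = 0.657). *Fcer1a* and *Ms4a2*, the other chains of the mast cell IgE receptor that uses *Fcer1g*, were at most 3.06 and 1.78 CPM, against 518 to 1008 CPM for *Fcer1g*.

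Of 6 genes of the interferon-gamma receptor and of transcription factors that act on Fc receptor genes, 2 were higher and 4 lower (median -0.22), and 0 had an unadjusted p under 0.05. *Irf8* had a log2 fold change of 0.29 ± 0.25 and *Spi1*, which encodes the myeloid factor PU.1, one of -0.32 ± 0.21. Motifs for such factors were looked for in the 250 bases before to 50 after the start of each gene (RefSeq, GRCm38.p6, both strands), where windows were found for all 7 genes. *Fcgr3* had 2 windows, of which only the first was searched. GAGGAA, the core bound by PU.1, occurred in those of *Fcgr1*, *Fcgr3*, *Fcgr4* and *Fcrls* and in 28.3% of all 32851 windows. TTCNNNGAA, the letters bound by STAT factors after interferon-gamma, occurred in that of *Fcgr1* alone among the windows searched for the 7, and in 8.3% of all windows. The stretches of *Fcgr1*, level between the subsets, and *Fcrls*, with the largest difference, are shown 5′ to 3′ on the minus strand. Motifs are in capitals, and TTCCTC is GAGGAA on the other strand. Bases after the RefSeq start or in GENCODE M21 exons were left out. The *Fcgr1* stretch is the 250 bases before that start. The *Fcrls* stretch lies 153 to 76 bases before it, but inside the GENCODE M21 gene given above. Another *Fcrls* piece, of 36 bases, held no motif and is not shown.
Fcgr1, chr3:96293970-96294219: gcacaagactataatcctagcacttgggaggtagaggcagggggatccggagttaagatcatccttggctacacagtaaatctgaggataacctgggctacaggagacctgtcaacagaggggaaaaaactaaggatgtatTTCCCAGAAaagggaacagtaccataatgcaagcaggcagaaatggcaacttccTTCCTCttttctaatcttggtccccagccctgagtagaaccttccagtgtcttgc
Fcrls, chr3:87263600-87263677: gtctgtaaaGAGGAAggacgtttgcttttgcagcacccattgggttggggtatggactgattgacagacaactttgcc
A match is a description of letters and not a bound site.

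Genes whose levels ran most nearly with each of the 7 were taken over the 6 libraries, among 10065 genes at a mean of 2 or more in log2 CPM. *Fcrls* ran with *Blnk* (Pearson r of log2 CPM 0.998) and *Rcn2* (0.986), *Fcgr2b* with *Nsun3* and *E2f1* (both 0.996), and *Fcer1g* with *Prdx1* and *Rnf128* (both 0.997). *Fcgr3* ran with *Slc48a1* and *Amdhd2* (both 0.999), *Fcgr4* with *Acot8* and *Hsd17b11* (both 0.999), *Fcgrt* with *Snx2* (0.993) and *Tmem141* (0.989), and *Fcgr1* with *Parp3* (0.98) and *Prpf40b* (0.958). These are descriptions over 6 points that share batch and depth, picked as the highest of 10065. With batch means removed, *Blnk* had the same r with *Fcrls*, 0.998, and ranked 8 among them.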

How the data were processed

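The data were 6 poly-A RNA-seq libraries, 3 from each TAM subset. The authors deposited raw read counts for 23424 genes per library, with length and biotype and no normalization. The aligner, counting tool, strand and annotation are not given in the sources used here. Of the gene IDs, 99.4% matched GENCODE M21 (GRCm38), and 73.4% had the same length.

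Of 15813 genes protein-coding in M21, the 14645 with at least 10 counts over the 6 libraries were tested in R 4.3.3 with edgeR 4.0.16 (quasi-likelihood, TMM, terms for batch and subset), adjusting by Benjamini-Hochberg over all of them and calling genes at an adjusted p under 0.05 with a log2 fold change beyond 1 in either direction. Other settings included DESeq2 1.42.0. Log2 CPM had a prior count of 2. The fits were tested on simulated data. Identical counts in any pair of libraries were at most 2.68% of genes over 100 counts, so none was a copy.

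Equal replicate numbers were taken as pairs because the study describes independent experiments. Deviations from subset means correlated at 0.745, 0.729 and 0.907 in replicates 1, 2 and 3 over 10072 genes. Batch was not removed there, and unequal numbers were not compared. These values therefore cannot show that replicates 1 and 2 are rightly paired. A fit with the pair as a block was set beside the fit with batch. The batch comes from a plot in the study's supplement, not from the labels.

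The members and gene lists were chosen with earlier results of these data known. Named were the 7 genes, *Adgre1*, from each list up to 3 genes per direction with the smallest p (all of a list of 3 or fewer), and for each of the 7 the 2 genes most like it. After values were seen, list genes past the first of their direction were left out at an unadjusted p of 0.1 or above, and no fold change was given under 1 CPM. Lists were described by counts and medians, with no test of a list. The melanoma markers *Tyr*, *Tyrp1* and *Dct* were not analysed here, and 1 gene of the activating list and 1 macrophage marker are not reported here.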

Additional observations from a re-analysis of the deposited data

How the results depend on the processing

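*Fcrls* was higher in F4/80high under all 21 alternatives (log2 fold change 1.96 to 3.73), as were *Fcgr2b* (0.21 to 0.96), *Fcer1g* (0.06 to 0.37) and *Fcgrt* (0.25 to 1.35). Outside the block, the alternatives without 1 or both of the replicate 3 libraries are in effect 1 comparison, within batch 1. The lowest values of *Fcgr2b*, *Fcer1g* and *Fcgrt*, and of *Fcgr3* (-0.12), came without F4/80high replicate 2. The count of the 7 genes called was 0 with batch as a term and 1 (*Fcrls*) with the replicate block, in edgeR, in DESeq2 and in edgeR without replicate 1, 2 or 3 of both subsets, and 0 to 1 when single libraries were left out. The 7 genes with an unadjusted p under 0.05 numbered 1 in edgeR with batch, 2 in DESeq2 with batch, 3 in both fits with the replicate block, 2 without replicate 3 of both subsets, 3, 2 and 2 with the block and without replicates 1, 2 and 3, and 1 to 3 when single libraries were left out. Of the 68 other pathway genes, 0 were called with batch, and 2, *Blnk* and *Fgr*, in DESeq2 with batch (adjusted p = 0.0163 and 0.0108), in DESeq2 with the replicate block and in edgeR with the block without replicate 1. Genes higher in all 3 pairs numbered 4 of the 7 with TMM, 3 with RLE size factors and 5 with library size alone. Over all genes, edgeR called 0 with batch and 76 with the replicate block, where 1113 and 1452 had an unadjusted p under 0.05, and DESeq2 called 148 with batch and 354 with the block.

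Among the named genes, directions changed for those that follow. *Fcgr1* (-0.00) became 0.00 with RLE size factors and in DESeq2 with batch, 0.04 with library size alone, 0.01 with the block in edgeR and DESeq2, 0.02 with all biotypes, 0.12 without replicate 3 of both subsets and 0.14 with the block too, and -0.17 to 0.12 with 1 library left out. *Fcgr4* became 0.03 with no batch term, 0.12 with the block and without replicate 2, and -0.20 to 0.06 with 1 library left out, and *Fcgr3* was -0.12 to 0.44 so. *B2m* became 0.03 with library size alone, 0.07 without replicate 3 of both subsets, 0.10 and 0.06 with the block and without replicates 2 and 3, and -0.22 to 0.07 with 1 library left out. *Cd247* became -0.20 with the block and without replicate 1 and -0.13 to 0.94 with 1 library left out, and *Hcst* and *Inpp5d* became 0.00 and -0.03 with the block and without replicate 2. The cause of these changes was not tested. Batch means removed before the correlations, an alternative added after the data were seen, left each r at 0.974 or above. With n = 3 per subset, the intervals given above set the differences that could be seen.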
